A study of Arabidopsis thaliana with 12 samples.

Results

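The subject here is the response of wild-type Arabidopsis thaliana rosettes to water deficit: 2 arrays of wild type under water deficit against 2 arrays of watered wild type, chosen by their sample titles, of 12 arrays in all. Both groups are of the Columbia-0 accession, carry no allele or agent besides the watering treatment, and are RNA of whole vegetative rosettes. Plants were 4 weeks old when the treatments divided. The watered plants went on receiving water, while the others received none until their relative water content had dropped to 65%, so the deficit plants were harvested at a leaf water state that is set and after a number of days that the labels do not give. The series also held the atx1 mutant and MYO-OX, in which MYO1 of the myotubularin family is overexpressed going by its name, each watered and at the same relative water content. Every group had 2 biological replicates. The labels do not say whether a replicate was 1 plant or a pool, and p-values here measure the spread between these samples only.

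When soil dries, abscisic acid rises in leaves, stomata close and expansion growth stops before photosynthesis fails. Leaf cells then accumulate late embryogenesis abundant (LEA) proteins, chaperones and compatible solutes that protect membranes and enzymes, and remobilise starch, protein and amino acids as carbon gain declines. Genes of wall loosening, cytoskeleton, ribosome assembly and chlorophyll synthesis belong to growing, light-fed leaves.

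The array, ATH1, reports each transcript by a probe set, and levels are log2 signals after robust multi-array averaging. A difference of 1 is a doubling. A change below is deficit minus watered on the log2 scale, with the standard error (SE) of the limma fit after ±, n = 2 arrays per group, and a probe set was called raised or lowered at a Benjamini-Hochberg adjusted p under 0.05 from that fit. The fit took 1 estimate of the spread for each probe set from all 12 arrays, so SE and p also depend on the arrays of the other genotypes. Values of single arrays are given in the order array 1 and array 2. Genes named by list or by signal class were picked among those called with arrays that did not overlap between the groups. Statements below that the arrays of such genes were apart restate that choice and are not further evidence. The array medians lay between 5.89 and 6.24 over the series. The wild-type replicates correlated at 0.978 (watered) and 0.987 (deficit) across probe sets. Spiked hybridization controls averaged 8.79 and 8.17 on the watered and 8.85 and 8.42 on the deficit arrays of wild type, and these groups overlapped. The 3' minus 5' GAPDH controls, a sign of RNA quality, were 0.865 and 0.59 on the watered and 0.557 and 0.582 on the deficit arrays, so that both deficit arrays lay below both watered ones, the closest pair by a narrow margin. With that control as a covariate 5804 probe sets were called in wild type, against 4466 without it, and 3 of 216 called genes eligible for naming lost their call. Of the cell type markers looked for, 1 of 5 mesophyll genes was measured under its name, RCA for rubisco activase, at 13.32 and 13.42 on the watered and 12.62 and 12.66 on the deficit arrays. Of 7 root markers 2 were measured. The root hair expansin EXPA7 stayed at 4.22 to 4.53 on all 4 arrays. The beta-glucosidase gene PYK10 was bright, at 10.66 and 10.48 on the watered and 8.03 and 7.67 on the deficit arrays, and fell by 2.72 (adjusted p = 0.00798). In watered rosettes 96% of probe sets lay at or below it. Of 3 senescent leaf markers 1 was measured, SAG29, a sugar transporter gene also known as SWEET15, which went from 6.55 and 6.67 to 11.89 and 11.94 and rose by 5.30 ± 0.67 (adjusted p = 0.00141). Its part in the changes of photosynthesis and autophagy genes given below was not tested. None of 3 pollen, 6 seed, 4 flower or 2 trichome markers was named on the array tables used here. Leaving out single arrays ended the call of PYK10 without watered array 1 (adjusted p 0.0574).

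Of 22746 probe sets, 4466 (19.6%) were called, 2037 raised (8.96%) and 2429 lowered (10.7%). Most changes were of middle size. Of the called probe sets 513 changed less than 2-fold, 2318 changed 2- to 4-fold, 1081 changed 4- to 8-fold and 372 changed 8- to 16-fold. The direction leaned down among the middle sizes, with 1289 lowered against 1029 raised at 2- to 4-fold, and up at the extreme, with 111 raised against 71 lowered at 16-fold or more. Size alone did not make a call: 1803 probe sets at 2- to 4-fold were not called, nor were 125 at 4- to 8-fold and 2 at 8- to 16-fold. Because rosettes hold many cell types, fewer cells of a type and less RNA per cell cannot be told apart in any change given here. Without deficit array 1 only 1441 probe sets were called, without watered array 1 1839, without deficit array 2 2882 and without watered array 2 2999. When each array was centred on its median, which moved the median change of all probe sets from 0.01 to 0.12, 2563 were raised and 1996 lowered, so the balance between the directions depends on the scaling.

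The share called depended on the signal. The probe sets were divided into 5 classes of equal size by the mean over the 4 wild-type arrays, a ranking of signals that is not a ranking of transcript amounts. In the dimmest class, below 4.11, 15 of 4550 probe sets (0.33%) were called, and in the next class, up to 5.31, 304 of 4549 (6.68%). The share was 28.3% from 5.31 to 6.87, 30.8% up to 8.32 and 32% above. The lowered share exceeded the raised share most in the third class, at 16.9% against 11.4%, and the shares were 16.2% and 15.8% in the brightest. The median SE rose from 0.17 in the dimmest class to 0.374 in the fourth, while the median absolute change rose from 0.0765 to 0.832.

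**Figure D1:**
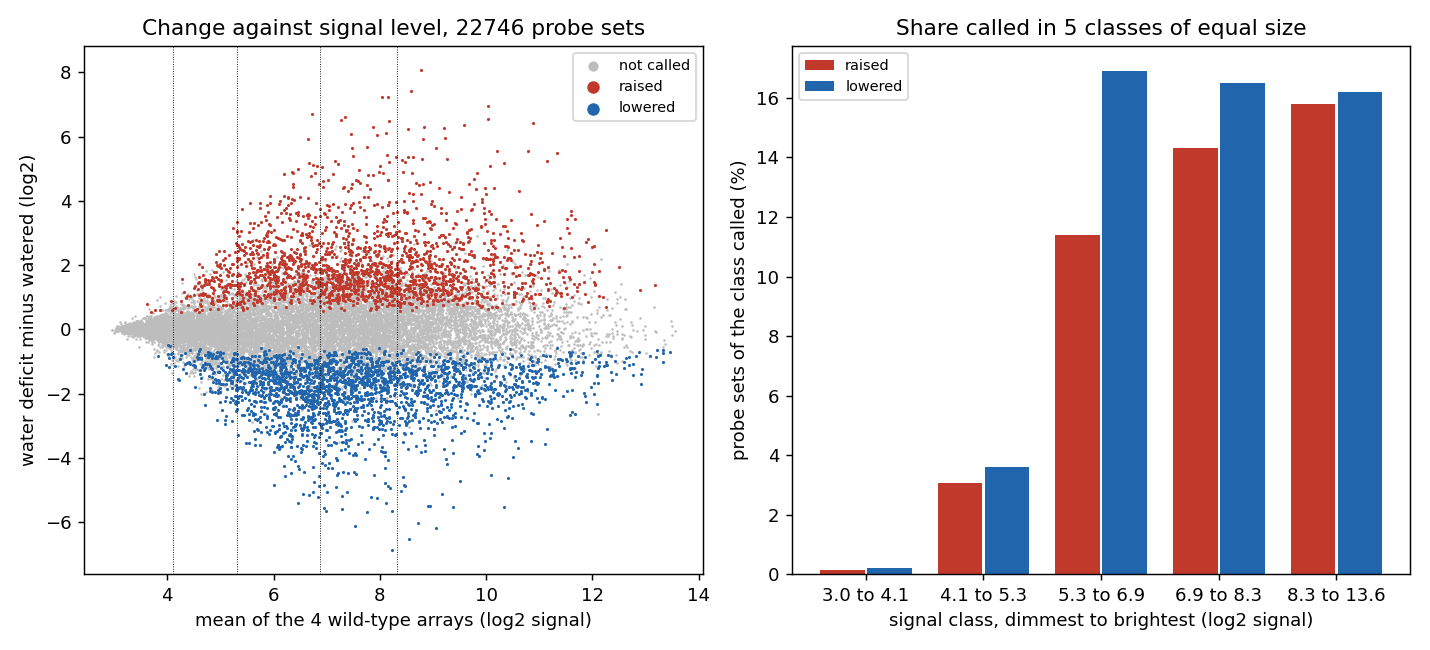
Left, the change of each of 22746 probe sets (log2, deficit minus watered) against its mean log2 signal over the 4 wild-type arrays, coloured by call, with dotted lines between the classes. Right, the percentage of probe sets raised and lowered in each of the 5 classes. Calls are nearly absent in the dimmest class (0.33%) and make up 28.3% to 32% of the upper 3.

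The classes are cut on the mean of the watered and deficit arrays together. A gene that is dim in 1 group and bright in the other therefore falls in a higher class, and large changes are nearly barred from the dimmest class. Named genes with large changes were found from the second class upward. In the dimmest class the MADS-box gene AGL94 was the only such call, at 3.38 and 3.47 on the watered and 4.02 and 3.94 on the deficit arrays. Its arrays did not overlap, but the change of 0.56 ± 0.17 (adjusted p = 0.0477) was small. In the second class the co-chaperone gene Hop3, whose product links Hsp70 to Hsp90, went from 4.05 and 3.95 to 6.75 and 6.47, and NAMT1, for a nicotinate methyltransferase, from 3.87 and 3.72 to 6.65 and 6.99. The groups stood well apart for both, and Hop3 rose by 2.61 ± 0.36 (adjusted p = 0.00211) while NAMT1 rose by 3.02 ± 0.49 (adjusted p = 0.00398). Among the lowered genes of that class were TBL35, at -1.96, and CLE26, which encodes a small signalling peptide, at -1.33. In the third class P1R1 fell by 3.72 ± 0.46 (adjusted p = 0.00134) and ATLP-1, named as a thaumatin-like protein gene, fell by 3.64 ± 0.51 (adjusted p = 0.00227). In the brightest class the glutathione transferase gene GSTU20 went from 12.12 and 11.44 to 7.25 and 8.53, and CaS, for the calcium sensing receptor of the thylakoid membrane, from 11.75 and 10.84 to 7.05 and 7.86. Neither overlapped, with falls of 3.89 and 3.84. With 1 array left out the call ended for AGL94 whichever array was left out (adjusted p 0.126 to 0.245).

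The set of brightest probe sets was exchanged to a large extent. Of the 50 with the highest mean in watered rosettes 15 were also among the 50 highest under deficit, and of the 200 highest 79 were shared. The replicates of a group shared 37 (watered) and 41 (deficit) of their 50 highest, whereas a watered and a deficit array shared 11 to 20. Of the 35 that left the top 50, 26 were lowered, and of the 35 that entered it, 25 were raised. The named genes entering were COR15A, COR47 and LTI30 of the cold-regulated and dehydrin proteins and ALDH7B4, an aldehyde dehydrogenase gene. Those leaving were GAPC2, RCA, LHCB4.2, PSAE-1, PSAN, ECS1 and the plastid genes atpB and atpE. These names follow from the ranking and were not picked by size of change.

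A smaller group crossed the whole range of signal. On both watered arrays 37 probe sets lay in the lowest 40% and on both deficit arrays in the highest 20%, with a median change of 5.1, and all 37 were called. Only 2 of them, LEA18 and APL4, had a gene symbol, 18 had a locus number and 17 were not listed in the annotation. In the other direction 27 probe sets crossed, with a median of -4.86, all called, and 4 had a symbol: DRT100, EXPA8, TBL45 and XTH16. Both sets were chosen for a wide gap on all 4 arrays, so their large medians and their calls largely restate that choice and are not further evidence.

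Most of the 10 named genes with the highest mean signal were not called. psbM of photosystem II stood at 13.77 and 13.41 on the watered and 13.47 and 13.36 on the deficit arrays, and SAMDC, for S-adenosylmethionine decarboxylase of polyamine synthesis, at 12.65 and 12.55 watered and 13.09 and 12.60 under deficit. DI19, named for drought induction, was at 12.36 and 12.37 watered and 12.71 and 12.32 under deficit. The groups overlapped for all 3 and none was called. GAPC2 for cytosolic glyceraldehyde-3-phosphate dehydrogenase changed by -0.54 ± 0.21 (adjusted p = 0.119) and LHCB4.1 for a minor antenna protein by -0.79 ± 0.39 (adjusted p = 0.212), each with arrays that did not overlap. RCA changed by -0.73 ± 0.77 (adjusted p = 0.629). Its wild-type arrays did not overlap either and were tight, with SD 0.07 watered and 0.03 under deficit (n = 2 each). Its SE is far wider than that because the fit takes the spread from the arrays of all genotypes. Of the 10, PSAE-1 of photosystem I alone passed the test, with -0.87 ± 0.21 (adjusted p = 0.0223). Calls that did not hold with 1 array left out were those of PSAE-1 without deficit array 1, deficit array 2 or watered array 1 (adjusted p 0.106 to 0.16).

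To describe the response by function, 1535 genes with a symbol were measured, each at its probe set with the highest mean, and 160 were raised and 186 lowered. Their symbols placed 991 of them in 74 lists by family or process, in which 116 were raised (11.7%) and 148 lowered (14.9%). The genes that had only a locus number, 11821 in all, were raised in 7.77% and lowered in 9.1%, with a median signal of 5.49 against 6.76 for genes with a symbol. A list count below should be read against 8.96% raised and 10.7% lowered over all probe sets, and a list median against the overall median change of 0.01.

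**Figure D2:**
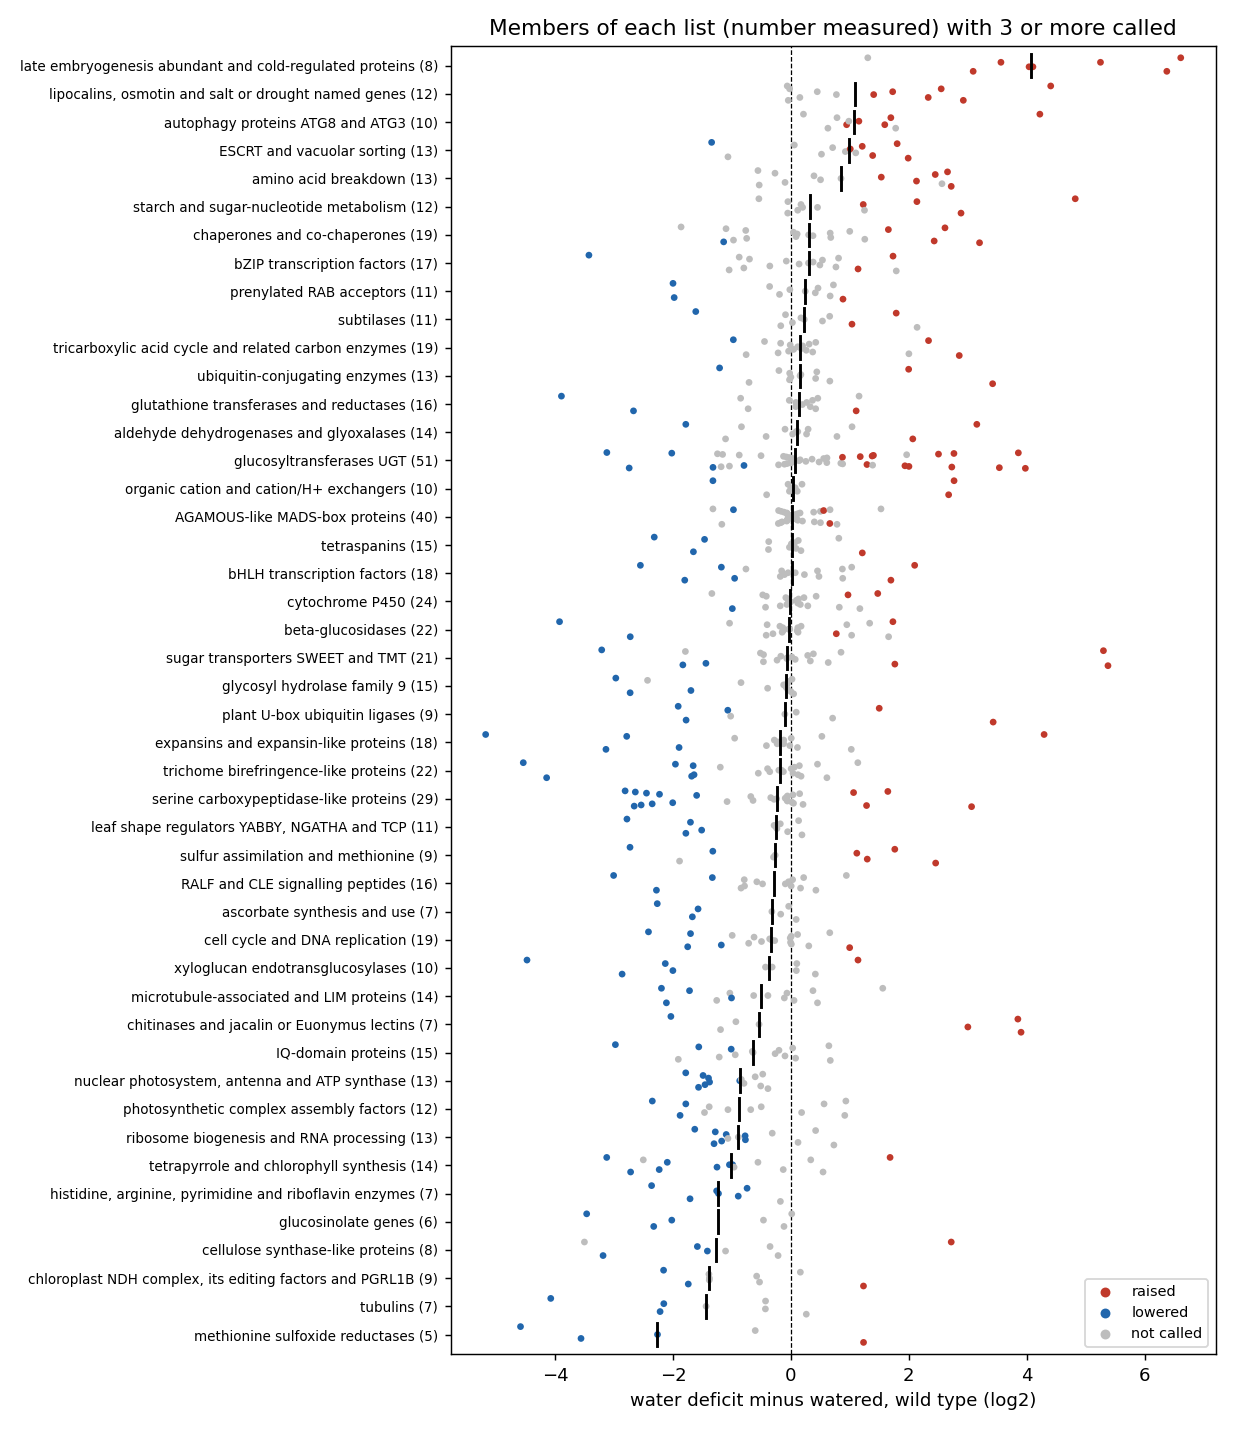
Change in wild type (log2, deficit minus watered) of each measured member of the lists with 3 or more called members, one row per list with the number measured in parentheses, ordered by the median (black bar). The dashed line is the median of all probe sets. LEA and cold-regulated genes lie to the right with a median of 4.07, and methionine sulfoxide reductases, tubulins and chloroplast NDH genes to the left with -2.26, -1.44 and -1.38.

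Of 39 genes of protective proteins 17 rose, 1 fell and 21 did not pass the test. Of 8 LEA and cold-regulated genes 7 were raised, by 3.09 to 6.61, and none lowered. The remaining member changed by 1.30 and was not called. LEA4-5 (AT5G06760), for a LEA protein of group 4, stood at 7.16 and 5.64 on the watered and 13.01 and 12.54 on the deficit arrays. The watered replicates differed by more than 1 unit, and the deficit arrays stood far above both. The gene rose by 6.38 ± 0.68 (adjusted p = 0.000717). LTI30 (AT3G50970), a dehydrin gene of membrane protection, stood at 8.67 and 8.36 watered and 14.02 and 13.51 under deficit, without overlap, and rose by 5.25 ± 0.50 (adjusted p = 0.000473). AtLEA4-1 rose by 4.11 ± 0.43 (adjusted p = 0.00068) and the dehydrin gene LEA rose by 4.04 ± 0.66 (adjusted p = 0.00436). These 2 started dim, with 23.5% and 27% of probe sets at or below them in watered rosettes, so their folds are not exact.

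Chaperone genes moved in both directions. Of 19 chaperone and co-chaperone genes 4 rose, 1 fell and 14 did not pass the test, with a median of 0.30. HSA32, for a heat-stress protein that maintains acquired thermotolerance, went from 5.33 and 4.95 to 8.55 and 8.12, and Hop3 and the small heat shock gene ATHSP22.0 were the next in size, at 2.61 and 2.43. No array of one group overlapped the other, and HSA32 rose by 3.20 ± 0.42 (adjusted p = 0.00166). The lowered member was Cpn60beta4, a subunit of the chloroplast chaperonin, with -1.14 ± 0.31 (adjusted p = 0.0346). Of 12 genes named for salt or drought or for lipocalins and osmotin 6 rose and none fell. SIS, whose name stands for a salt-induced serine-rich protein, went from 7.75 and 8.14 to a mean of 12.35 ± 0.50 (SD, n = 2), and DI21 from 8.46 and 7.01 to 10.84 and 10.47. Both were apart, with the watered DI21 arrays spread by more than 1 unit, and SIS rose by 4.41 ± 0.79 (adjusted p = 0.0062) while DI21 rose by 2.92 ± 0.68 (adjusted p = 0.0188). RD2 rose by 2.55 ± 0.26 (adjusted p = 0.000621). Over all 39 genes of these 3 lists the raised and lowered calls were 17 and 1, which became 12 and 0 without deficit array 1, 16 and 1 without deficit array 2, 16 and 0 without watered array 1 and 16 and 0 without watered array 2. The call was lost for Cpn60beta4 without deficit array 1, watered array 1 or watered array 2 (adjusted p 0.125 to 0.246), SIS without deficit array 1 (adjusted p 0.0606) and DI21 without deficit array 1, deficit array 2 or watered array 2 (adjusted p 0.0636 to 0.126).

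Several genes of amino acid breakdown rose. Of 13 breakdown genes 5 were raised and none lowered, with a median of 0.85. IVD, for isovaleryl-CoA dehydrogenase of leucine breakdown, stood at 7.30 and 7.68 on the watered and 10.49 and 9.94 on the deficit arrays. MGL, for methionine gamma-lyase, stood at 7.25 and 8.66 watered and 10.75 and 10.47 under deficit, and D2HGDH, for D-2-hydroxyglutarate dehydrogenase, which with IVD passes electrons to the electron transfer flavoprotein of mitochondria, at 6.91 and 6.18 watered and 9.23 and 8.76 under deficit. The groups did not overlap for any of the 3, though the watered MGL arrays lay far apart. IVD rose by 2.72 ± 0.66 (adjusted p = 0.0222), MGL rose by 2.66 ± 0.74 (adjusted p = 0.0373) and D2HGDH rose by 2.45 ± 0.30 (adjusted p = 0.00136). NDB2, for an external NAD(P)H dehydrogenase that bypasses complex I, was the 1 member called of 7 alternative dehydrogenase and cytochrome c genes, from 7.68 and 7.89 to 10.09 and 10.06. Its arrays were tight, and it rose by 2.29 ± 0.17 (adjusted p = 0.000227). Leaving out single arrays ended the call of IVD whichever array was left out (adjusted p 0.0624 to 0.152) and MGL without deficit array 1, deficit array 2 or watered array 1 (adjusted p 0.11 to 0.232).

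Of 19 genes of the tricarboxylic acid cycle and related enzymes 2 rose (10.5%, near the 8.96% over all probe sets). Both were for succinate dehydrogenase, which belongs to the cycle and to the respiratory chain. SDH1-1 rose by 2.86 ± 0.72 (adjusted p = 0.026) and SDH2-1 went from 9.88 and 9.24 to 12.06 and 11.72, a rise of 2.33 ± 0.30 (adjusted p = 0.0015). A second, dimmer probe set of SDH2-1 changed by 0.68 and was not called (adjusted p = 0.2). The cytosolic isocitrate dehydrogenase gene cICDH fell by 0.97 ± 0.18 (adjusted p = 0.00776). Of 14 aldehyde dehydrogenase and glyoxalase genes ALDH7B4 rose by 3.15 ± 0.51 (adjusted p = 0.00421) and GLX2-5, for a glyoxalase II, rose by 2.07 ± 0.34 (adjusted p = 0.00468), while ALDH3F1 fell by 1.78 ± 0.39 (adjusted p = 0.0143). Of the 19 cycle and related genes the other 16, among them other isocitrate dehydrogenase genes and the ATP-citrate lyase genes, were not called. Calls that did not hold with 1 array left out were those of SDH1-1 whichever array was left out (adjusted p 0.073 to 0.145), cICDH without deficit array 2 or watered array 1 (adjusted p 0.0555 to 0.0708) and ALDH3F1 without deficit array 1 or watered array 1 (adjusted p 0.101 to 0.112).

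Starch and sugar genes moved in named pieces. Of 12 starch and sugar-nucleotide genes 4 rose and none fell, with a median of 0.33. APL3, like APL4 a large subunit of ADP-glucose pyrophosphorylase, went from 6.53 and 5.93 to 8.26 and 8.47 and rose by 2.14 ± 0.27 (adjusted p = 0.00151). The symbol PWD, for a phosphoglucan water dikinase, stands for 2 loci. AT4G24450 went from 4.51 and 5.27 to 7.96 and 7.59, with 2.89 ± 0.68 (adjusted p = 0.0198), and AT5G26570 changed by 1.25, which was not called (adjusted p = 0.0789). Of 21 SWEET and related sugar transporters 3 rose and 3 fell. Beside SWEET4 and SAG29 the vacuolar monosaccharide transporter gene TMT2 rose by 1.76 ± 0.43 (adjusted p = 0.0219). The other direction was taken by SWEET16, a vacuolar sugar facilitator, which went from 8.02 and 7.54 to 4.55 and 4.60, without overlap, and fell by 3.21 ± 0.38 (adjusted p = 0.0012). SFP2 fell by 1.83 ± 0.32 (adjusted p = 0.0055), and SWEET17, for a vacuolar fructose facilitator, fell by 1.44 ± 0.39 (adjusted p = 0.0346). Single arrays decided the call of PWD without deficit array 1, deficit array 2 or watered array 1 (adjusted p 0.0657 to 0.131), TMT2 whichever array was left out (adjusted p 0.0504 to 0.139) and SWEET17 without deficit array 1, deficit array 2 or watered array 1 (adjusted p 0.131 to 0.221).

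The nitrogen list was lowered, and the sulfur list moved in both directions. Of 7 histidine, arginine, pyrimidine and riboflavin genes 6 fell and none rose, with a median of -1.23. UPP, for uracil phosphoribosyltransferase of pyrimidine salvage, went from 8.16 and 7.42 to 5.23 and 5.62 and fell by 2.36 ± 0.36 (adjusted p = 0.00315), and AT-HF, the HISN4 enzyme of histidine synthesis, from 7.78 and 7.78 to 5.92 and 6.23, -1.71 ± 0.24 (adjusted p = 0.00212). The pyrimidine deaminase gene PyrD fell by 1.26 ± 0.38 (adjusted p = 0.0492). Of 9 sulfur and methionine genes 4 rose and 2 fell, with a median of -0.265. APS3, for ATP sulfurylase at the entry of sulfate assimilation, went from 9.54 and 9.12 to 6.38 and 6.82 and fell by 2.73 ± 0.40 (adjusted p = 0.00263), and CBL, for cystathionine beta-lyase of methionine synthesis, fell by 1.32 ± 0.18 (adjusted p = 0.00211). APS4, another ATP sulfurylase gene, went the other way from APS3 and rose by 1.12 (adjusted p = 0.0477). That call ended without deficit array 1, deficit array 2 or watered array 1. The sulfurtransferase gene STR18 rose by 2.46 ± 0.35 (adjusted p = 0.00223) and OASA2, an isoform of O-acetylserine thiol lyase, rose by 1.76 ± 0.48 (adjusted p = 0.0359). Over the 101 genes in the lists of this and the 3 preceding paragraphs the raised and lowered calls were 21 and 13, which became 11 and 7 without deficit array 1, 13 and 8 without deficit array 2, 11 and 6 without watered array 1 and 14 and 13 without watered array 2. The test was no longer passed by PyrD without deficit array 1, deficit array 2 or watered array 1 (adjusted p 0.103 to 0.303) and OASA2 whichever array was left out (adjusted p 0.0721 to 0.226).

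**Figure D3:**
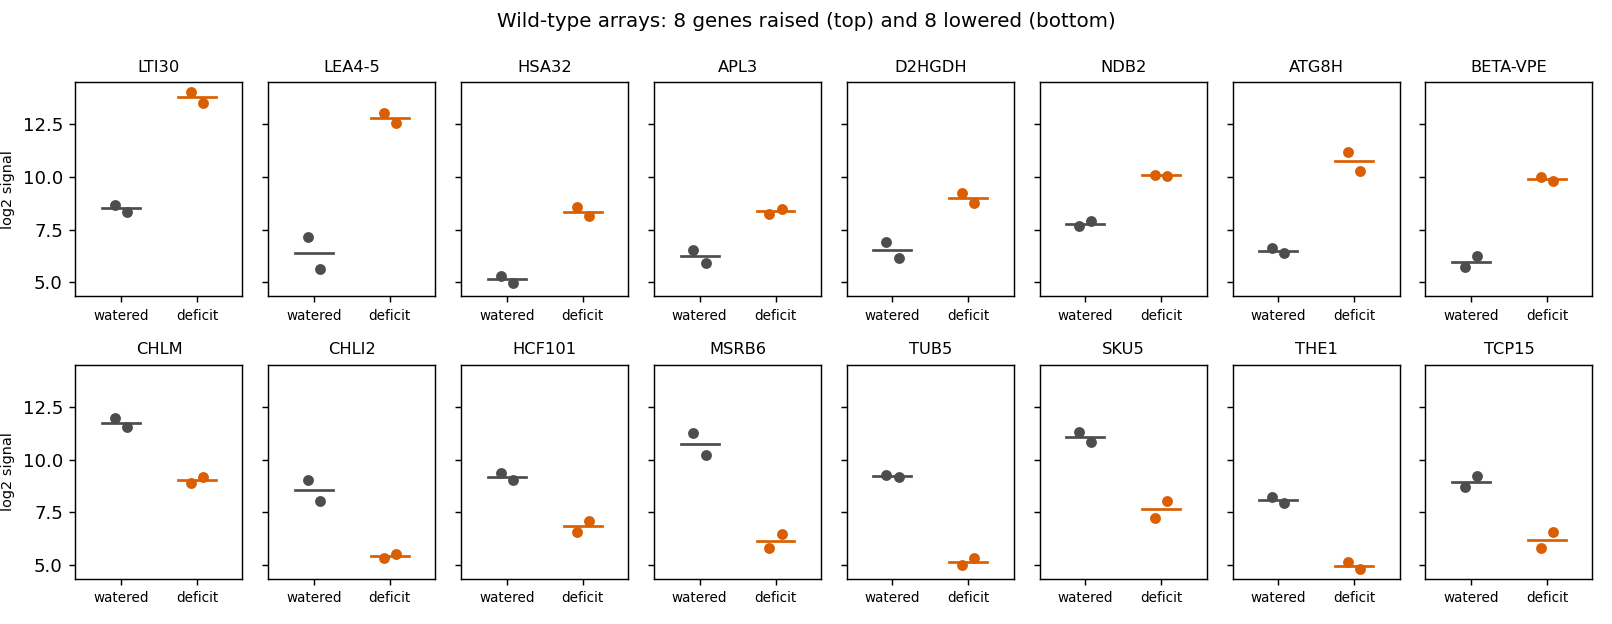
Log2 signal on each wild-type array for 8 genes raised (top row) and 8 lowered (bottom row) under water deficit. Points are single arrays and bars are group means. In every panel the arrays of the 2 groups are apart, by the least in D2HGDH, APL3 and HCF101 of those shown.

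Of 13 nuclear photosystem, antenna and ATP synthase genes 7 were lowered and 6 did not pass the test, with changes between -1.78 and -0.39. PSBY of photosystem II went from 12.97 and 12.78 to 10.86 and 11.32, PSAN of photosystem I from 13.45 and 12.85 to 11.46 and 11.71 and ATPC1, the gamma subunit of the ATP synthase, from 12.63 and 12.20 to 10.90 and 10.96. None overlapped, and the falls were 1.78, 1.56 and 1.49 with SE 0.41, 0.28 and 0.26. Of 12 assembly factor genes 3 were lowered and 9 did not pass the test. Those lowered were HCF101, for a scaffold of iron-sulfur clusters of photosystem I, from 9.36 and 9.02 to 6.58 and 7.10, LPA2, for photosystem II accumulation, by 1.88, and CCB3, for haem attachment in the cytochrome b6f complex, by 1.78. HCF101 fell by 2.35 ± 0.32 (adjusted p = 0.00197) and LPA2 fell by 1.88 ± 0.25 (adjusted p = 0.00184). Of 9 genes for the chloroplast NDH complex, its editing factors and PGRL1B 2 fell, 1 rose and 6 did not pass the test. NdhN fell by 2.16 ± 0.34 (adjusted p = 0.00347) and NdhL fell by 1.74 ± 0.44 (adjusted p = 0.0255), whereas PGRL1B, which acts in the other route of cyclic electron flow, rose by 1.23 ± 0.24 (adjusted p = 0.00938). SBPASE, for sedoheptulose bisphosphatase, was the 1 called of 4 genes of carbon fixation and photorespiration, from 12.24 and 11.46 to 9.69 and 10.25. With the 4 wild-type arrays fitted alone, which leaves 2 residual degrees of freedom, all 4 of these genes were lowered. The call was lost for PSBY without deficit array 1, watered array 1 or watered array 2 (adjusted p 0.0578 to 0.134), PSAN without deficit array 1 or watered array 1 (adjusted p 0.0514 to 0.0605), ATPC1 without deficit array 1 or watered array 1 (adjusted p 0.0549 to 0.0552), CCB3 whichever array was left out (adjusted p 0.0719 to 0.251), PGRL1B without deficit array 1, watered array 1 or watered array 2 (adjusted p 0.0511 to 0.0831), NdhL without deficit array 1, deficit array 2 or watered array 1 (adjusted p 0.0646 to 0.173) and SBPASE without deficit array 1 (adjusted p 0.056).

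Of 14 genes of tetrapyrrole and chlorophyll synthesis 7 fell and 1 rose, with a median of -1.01. CHLI2, a subunit of the magnesium chelatase at the start of the chlorophyll branch, stood at 9.06 and 8.04 on the watered and 5.33 and 5.52 on the deficit arrays. CHLM, the methyltransferase that follows it, stood at 11.95 and 11.54 watered and 8.87 and 9.19 under deficit. Both were far apart, and CHLI2 fell by 3.12 ± 0.50 (adjusted p = 0.00378) while CHLM fell by 2.72 ± 0.21 (adjusted p = 0.000253). LIL3:1, which anchors late enzymes of the branch, fell by 2.23 ± 0.39 (adjusted p = 0.00568). The raised member was HEMA2, one of the glutamyl-tRNA reductase genes at the entry of the pathway, from 7.48 and 7.39 to 9.28 and 8.95, 1.68 ± 0.47 (adjusted p = 0.0392). Leaving out single arrays ended the call of LIL3:1 without deficit array 1 or watered array 1 (adjusted p 0.0508 to 0.0584) and HEMA2 whichever array was left out (adjusted p 0.099 to 0.217).

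The plastid-encoded genes did not share this pattern between replicates. Of 69 measured, 63 were lower under deficit, with a median of -0.61, but their median SE was 0.817 and 1 was called, rpl33 of the plastid ribosome, at 11.21 and 11.67 watered and 8.83 and 10.35 under deficit, which fell by 1.84 ± 0.48 (adjusted p = 0.0299). The fall lay mainly on 1 array. On deficit array 1 the median difference from the watered mean was -1.57 and 60 of the 69 lay below both watered arrays, while on deficit array 2 the median was -0.04 and 22 did. Deficit array 1 was below deficit array 2 in 64 of the 69. For the 13 nuclear photosystem genes both deficit arrays were low, with medians of -0.82 and -0.92 and 12 of 13 below both watered arrays on each. Over the 133 genes in the lists of this and the 2 preceding paragraphs, with organelle transcript processing included, the raised and lowered calls were 2 and 22, which became 0 and 7 without deficit array 1, 1 and 23 without deficit array 2, 0 and 8 without watered array 1 and 0 and 22 without watered array 2. Calls that did not hold with 1 array left out were those of rpl33 without deficit array 1, watered array 1 or watered array 2 (adjusted p 0.0869 to 0.18).

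**Figure D4:**
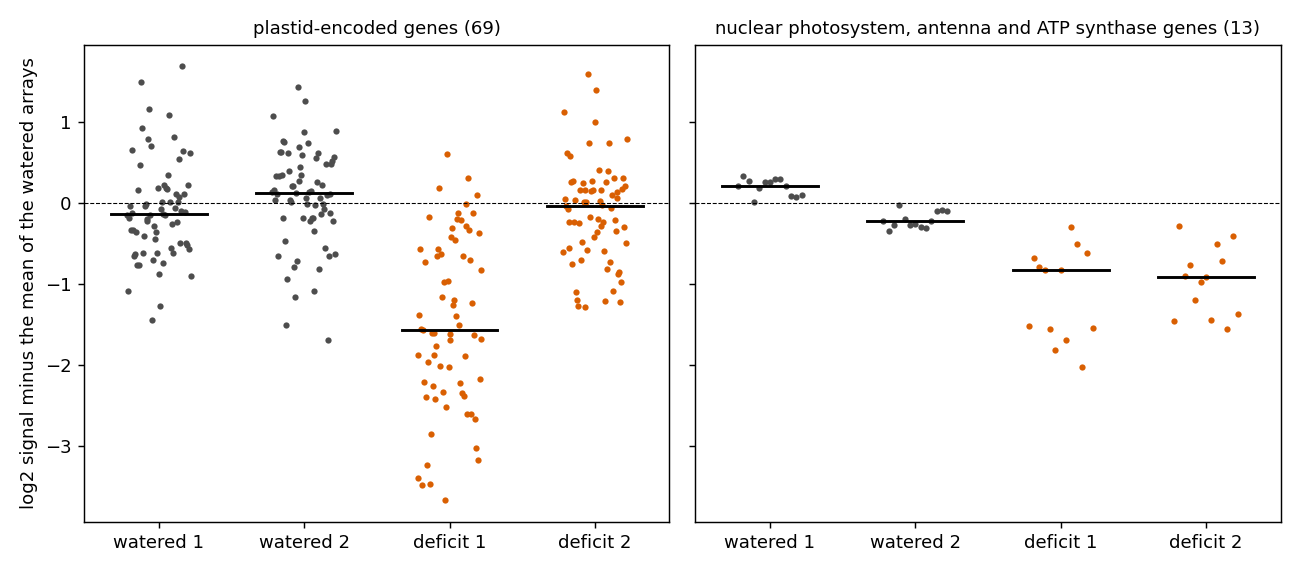
Log2 signal minus the mean of the watered arrays on each wild-type array, for 69 plastid-encoded genes (left) and 13 nuclear genes of the photosystems, antenna and ATP synthase (right). Each point is a gene and bars are medians. The plastid-encoded genes are low on deficit array 1 (median -1.57) and near the watered level on deficit array 2 (median -0.04), while the nuclear genes are low on both.

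Of 36 redox genes 10 fell, 2 rose and 24 did not pass the test. Of 5 methionine sulfoxide reductase genes 3 fell and 1 rose. MSRB6, which restores oxidised methionine, went from 11.25 and 10.22 to 5.81 and 6.49, and its relative MSRB5 from 9.83 and 9.52 to 5.97 and 6.26. All 4 deficit values lay more than 3 units below the watered ones, and MSRB6 fell by 4.58 ± 0.56 (adjusted p = 0.0013), MSRB5 fell by 3.56 ± 0.44 (adjusted p = 0.00136) and MSRB9 fell by 2.26 ± 0.54 (adjusted p = 0.0204). MSRB3 rose by 1.23 ± 0.31 (adjusted p = 0.0249). Near-identical members of this family can share probes. Of 16 glutathione genes GSTU20 fell by 3.89 ± 0.41 (adjusted p = 0.000695) and GSTU27 fell by 2.67 ± 0.50 (adjusted p = 0.0079), while the glutathione reductase gene GR1 rose by 1.11 ± 0.22 (adjusted p = 0.00974). In ascorbate synthesis VTC4, for the phosphatase that releases galactose, went from 10.29 and 9.52 to 7.55 and 7.72 and fell by 2.27 ± 0.30 (adjusted p = 0.00179). Phosphomannomutase, PMM, of the same route fell by 1.57 ± 0.38 (adjusted p = 0.0227). Of 8 thioredoxin genes 2 fell, ty2 by 1.52 and TRXF2, which activates enzymes of carbon fixation in light, by 1.24. Over the 36 genes the raised and lowered calls were 2 and 10, which became 0 and 5 without deficit array 1, 1 and 8 without deficit array 2, 1 and 4 without watered array 1 and 0 and 10 without watered array 2. The test was no longer passed by MSRB9 without deficit array 1 or watered array 1 (adjusted p 0.142 to 0.152), MSRB3 whichever array was left out (adjusted p 0.0508 to 0.182), GSTU27 without watered array 1 (adjusted p 0.064), GR1 without deficit array 1 or watered array 2 (adjusted p 0.0638 to 0.0941), PMM without deficit array 1, deficit array 2 or watered array 1 (adjusted p 0.0965 to 0.156), ty2 without deficit array 1, deficit array 2 or watered array 1 (adjusted p 0.0553 to 0.119) and TRXF2 without deficit array 1 or watered array 1 (adjusted p 0.0546 to 0.0834).

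Of 81 wall genes in 7 lists 23 fell (28.4%), 3 rose (3.7%) and 55 did not pass the test. Besides EXPA8, the beta-expansin genes EXPB3 and EXPB1 fell by 3.13 ± 0.55 (adjusted p = 0.00596) and by 2.78 ± 0.44 (adjusted p = 0.0038), and the expansin-like gene EXLB1 went the other way, from 8.45 and 8.50 to 12.84 and 12.70. EXLB1 rose by 4.29 ± 0.32 (adjusted p = 0.000249), and no other wall gene listed rose as far. Of 10 xyloglucan endotransglucosylase genes, whose products cut and rejoin the tethers between cellulose fibrils, XTH32 fell by 2.86 ± 0.45 (adjusted p = 0.00372) and XTH18 fell by 2.13 ± 0.38 (adjusted p = 0.00594), and XTH29 rose by 1.14 ± 0.23 (adjusted p = 0.0098). With 1 array left out the call ended for EXPB3 without deficit array 1 (adjusted p 0.0575), XTH18 without watered array 1 (adjusted p 0.0509) and XTH29 without deficit array 1, watered array 1 or watered array 2 (adjusted p 0.0514 to 0.0659).

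Of 22 trichome birefringence-like genes, a family that includes O-acetyltransferases of wall polysaccharides, 6 fell and none rose. TBL26 stood at 9.65 and 9.28 watered and 4.49 and 5.36 under deficit, and TBL45 at 9.22 and 8.76 watered and 4.70 and 4.99 under deficit. Each group was apart by more than 3 units, and TBL26 fell by 4.54 ± 0.94 (adjusted p = 0.0117) while TBL45 fell by 4.14 ± 0.34 (adjusted p = 0.000287). Of 15 family 9 glycosyl hydrolase genes, which encode endoglucanases, GH9C2 fell by 2.97 ± 0.64 (adjusted p = 0.0139) and GH9B13 fell by 2.73 ± 0.49 (adjusted p = 0.00654), and none rose. Of 8 cellulose synthase-like genes CSLA03 fell by 3.18 ± 0.60 (adjusted p = 0.00776) and CSLC04, of the family that makes the xyloglucan backbone, fell by 1.58 ± 0.45 (adjusted p = 0.0418). CSLD2 rose by 2.72 ± 0.50 (adjusted p = 0.00714). Of 4 pectin methylesterase genes ATPMEPCRB fell by 2.67 ± 0.42 (adjusted p = 0.00364) and PME61 fell by 2.13 ± 0.42 (adjusted p = 0.00991). SKU5, for a cell surface protein of directional growth, went from 11.33 and 10.82 to 7.25 and 8.04 and fell by 3.43 ± 0.27 (adjusted p = 0.000274), while its 3 measured relatives were dim and were not called. For the 81 genes the raised and lowered calls became 1 and 10 without deficit array 1, 3 and 18 without deficit array 2, 1 and 12 without watered array 1 and 2 and 18 without watered array 2. The call was lost for TBL26 without deficit array 1 or watered array 1 (adjusted p 0.0754 to 0.0972), GH9C2 without deficit array 1, watered array 1 or watered array 2 (adjusted p 0.0601 to 0.12), GH9B13 without deficit array 1 (adjusted p 0.0652), CSLA03 without watered array 1 (adjusted p 0.0582), CSLC04 whichever array was left out (adjusted p 0.0895 to 0.242), CSLD2 without deficit array 1 or watered array 1 (adjusted p 0.06 to 0.0699) and PME61 without deficit array 1 or watered array 2 (adjusted p 0.0544 to 0.0794).

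Of 7 tubulin genes 3 fell, none rose and 4 did not pass the test, with a median of -1.44. TUB5 stood at 9.28 and 9.17 on the watered and 4.99 and 5.33 on the deficit arrays, TUA6 at 11.48 and 11.43 watered and 9.09 and 9.52 under deficit, and TUB1 at 6.52 and 6.95 watered and 4.33 and 4.71 under deficit. No group overlapped another, and TUB5 fell by 4.07 ± 0.65 (adjusted p = 0.00393), TUB1 fell by 2.22 ± 0.61 (adjusted p = 0.0369) and TUA6 fell by 2.15 ± 0.37 (adjusted p = 0.00555). Of 14 genes for microtubule-associated and LIM proteins 4 fell and 10 did not pass the test. ATMAP65-6, for a crosslinker of microtubules, fell by 2.19 ± 0.48 (adjusted p = 0.015), SP1L3 of the SPIRAL1 family fell by 2.11 ± 0.35 (adjusted p = 0.0048) and WLIM1, for an actin-bundling LIM protein, fell by 1.72 ± 0.28 (adjusted p = 0.00425). The IQ-domain gene iqd21 went from 8.12 and 8.01 to 5.12 and 5.05, the first in size of 3 lowered among 15. Upward moved NET1D and NET2D of the 10 networked actin-binding proteins, by 3.02 ± 0.59 (adjusted p = 0.00931) and 2.32 ± 0.34 (adjusted p = 0.00251), and TRM15 of the TON1 recruiting motif family, by 1.97. Of 15 tetraspanin genes TET10 fell by 2.32 ± 0.44 (adjusted p = 0.00781) and TET2 fell by 1.65 ± 0.22 (adjusted p = 0.00184). Leaving out single arrays ended the call of TUA6 without deficit array 1 (adjusted p 0.0571), TUB1 whichever array was left out (adjusted p 0.098 to 0.203), ATMAP65-6 without deficit array 1, watered array 1 or watered array 2 (adjusted p 0.0541 to 0.121), SP1L3 without deficit array 1 (adjusted p 0.0518), NET1D without deficit array 1 or watered array 2 (adjusted p 0.056 to 0.0868), TRM15 without deficit array 1 (adjusted p 0.0534) and TET10 without deficit array 1 or watered array 1 (adjusted p 0.0584 to 0.0748).

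Most cell cycle genes were not called. Of 19 genes of the cell cycle and of DNA replication 4 fell, 1 rose and 14 did not pass the test. FBL17, an F-box gene whose product removes inhibitors of cyclin-dependent kinases, went from 7.30 and 7.41 to 5.57 and 5.65 and fell by 1.75 ± 0.25 (adjusted p = 0.00249). POLA3, of the primase, fell by 2.41 ± 0.65 (adjusted p = 0.0331) and PRL, the helicase subunit MCM7, fell by 1.70 ± 0.50 (adjusted p = 0.0461). The raised gene was the aurora kinase gene AUR3, by 1.00 ± 0.26 (adjusted p = 0.0303). Of 4 stomatal lineage genes FMA (FAMA) alone was called, and SPCH, MUTE and STOMAGEN were not. The 2 guard cell markers measured, GC1 and FAMA, both fell, GC1 from 9.40 and 8.93 to 3.92 and 3.63, and the part of guard cells in other changes was not tested. Over 106 growth genes of this and the preceding paragraph the raised and lowered calls were 6 and 19, which became 1 and 7 without deficit array 1, 3 and 14 without deficit array 2, 4 and 11 without watered array 1 and 2 and 12 without watered array 2. Calls that did not hold with 1 array left out were those of POLA3 whichever array was left out (adjusted p 0.0618 to 0.192), PRL whichever array was left out (adjusted p 0.0832 to 0.216) and AUR3 whichever array was left out (adjusted p 0.0665 to 0.195).

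Several genes of vacuolar breakdown and autophagy rose. Of 10 genes for ATG8, the protein that coats the autophagosome, and ATG3, which attaches it to lipid, all were higher and 5 were called, with a median of 1.07. ATG8H stood at 6.63 and 6.39 on the watered and 11.20 and 10.27 on the deficit arrays and rose by 4.22 ± 0.57 (adjusted p = 0.00195). APG8A rose by 1.70 ± 0.36 (adjusted p = 0.0133) and ATG8B rose by 1.59 ± 0.32 (adjusted p = 0.00983). Of 4 vacuolar processing enzyme genes BETA-VPE went from 5.72 and 6.25 to 10.01 and 9.80 and rose by 3.92 ± 0.42 (adjusted p = 0.000734), and ALPHA-VPE rose by 0.97 ± 0.27 (adjusted p = 0.0359). Of 13 genes for ESCRT proteins, which sort membrane cargo into vacuole-bound vesicles, and vacuolar sorting, 5 rose and 1 fell. VPS20.1 rose by 1.99 ± 0.45 (adjusted p = 0.0161) and VPS60.1 rose by 1.80 ± 0.24 (adjusted p = 0.00183), while VPS9B, for an activator of RAB GTPases, fell by 1.34 ± 0.21 (adjusted p = 0.00336). Single arrays decided the call of ATG3 without deficit array 1 (adjusted p 0.0603), APG8A without deficit array 1, watered array 1 or watered array 2 (adjusted p 0.0622 to 0.117), ATG8B without deficit array 1 or watered array 1 (adjusted p 0.0679 to 0.0898), ALPHA-VPE whichever array was left out (adjusted p 0.0535 to 0.228) and VPS20.1 without deficit array 1, watered array 1 or watered array 2 (adjusted p 0.0528 to 0.128).

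The ubiquitin genes moved singly. UBC32, for an E2 enzyme of the endoplasmic reticulum, went from 8.27 and 8.70 to 12.08 and 11.73 and rose by 3.42 ± 0.47 (adjusted p = 0.00201), and UBC30 rose by 2.00 ± 0.26 (adjusted p = 0.00169), with 10 of 13 E2 genes not called. PUB19, for a U-box ubiquitin ligase, went from 8.18 and 8.35 to 11.81 and 11.58 and rose by 3.43 ± 0.25 (adjusted p = 0.000237). Its relatives PUB26 and PUB22 fell by 1.91 ± 0.38 (adjusted p = 0.00958) and by 1.78 ± 0.52 (adjusted p = 0.0452). The proteases UBP18 and UBP20 rose by 1.96 ± 0.33 (adjusted p = 0.00503) and by 1.46 ± 0.21 (adjusted p = 0.00255). Of 29 serine carboxypeptidase-like genes 9 fell (31%) and 4 rose (13.8%). The first in size down were scpl50, from 7.41 and 7.33 to 4.30 and 4.82, SCPL45, by 2.66, and SCPL27, by 2.64. Up was scpl33, from 4.78 and 5.03 to 8.10 and 7.84, and SCPL49 rose by 1.65 ± 0.25 (adjusted p = 0.00304). None of these 5 overlapped between groups, and the adjusted p were 0.000496, 0.000496, 0.00278 and 0.00206 for the first 4 named. Over the 126 genes of protein fate the raised and lowered calls were 26 and 17, which became 10 and 8 without deficit array 1, 17 and 11 without deficit array 2, 12 and 9 without watered array 1 and 14 and 15 without watered array 2. The test was no longer passed by PUB26 without deficit array 1 or watered array 1 (adjusted p 0.0696 to 0.0888), PUB22 without deficit array 1, deficit array 2 or watered array 1 (adjusted p 0.165 to 0.209) and UBP18 without deficit array 1 (adjusted p 0.0539).

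Glucosyltransferase genes rose more often than they fell. Of 51 UGT genes, which attach sugars to hormones, phenolics and other small molecules, 13 rose (25.5%), 5 fell (9.8%) and 33 did not pass the test. UGT85A5 stood at 5.47 and 5.76 on the watered and 9.51 and 9.67 on the deficit arrays, UGT76E12 at 6.20 and 6.25 watered and 10.58 and 9.58 under deficit, and UGT73B5 at 4.80 and 4.77 watered and 8.62 and 8.02 under deficit. All 3 were apart by more than 3 units, and UGT85A5 rose by 3.98 ± 0.29 (adjusted p = 0.000227), UGT76E12 rose by 3.86 ± 0.39 (adjusted p = 0.000593) and UGT73B5 rose by 3.54 ± 0.43 (adjusted p = 0.0013). The lowered ones included UGT72E1, which acts on lignin precursors, with -3.12 ± 0.33 (adjusted p = 0.000738), and UGT78D1, which adds rhamnose to flavonols, with -2.74 ± 0.55 (adjusted p = 0.0103). Of 22 beta-glucosidase genes BGLU44 fell by 3.92 ± 0.71 (adjusted p = 0.0065) and PYK10, of the ER bodies, fell by 2.72 ± 0.52 (adjusted p = 0.00798), with 18 not called. Of 24 cytochrome P450 genes, most of them of the CYP71B family, 3 were called, below the background share. Of 6 glucosinolate genes 3 fell: BCAT4, AOP1 by 2.33 ± 0.65 and UGT74B1, the glucosyltransferase of the core pathway, by 2.02 ± 0.50. With 1 array left out the call ended for UGT78D1 without deficit array 1 or watered array 1 (adjusted p 0.0808 to 0.0944), BGLU44 without deficit array 1 (adjusted p 0.0652), PYK10 without watered array 1 (adjusted p 0.0574), AOP1 without deficit array 1, deficit array 2 or watered array 1 (adjusted p 0.133 to 0.245) and UGT74B1 whichever array was left out (adjusted p 0.0607 to 0.163).

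Defence genes moved in both directions. Of 7 chitinase and lectin genes 3 rose and 1 fell, with a median of -0.54, and of 15 defensin and thionin genes 2 fell and none rose. The lowered lectin gene was JAL33, a jacalin lectin gene, by 2.03 (adjusted p = 0.0178), a call that ended whichever array was left out. The chitinase gene CHI went from 7.26 and 6.95 to 11.17 and 10.74 and rose by 3.85 ± 0.38 (adjusted p = 0.000555). The lectin gene EULS3 rose by 3.90 ± 0.79 (adjusted p = 0.0105) and the class V chitinase gene ChiC rose by 3.002 ± 0.52 (adjusted p = 0.00543). The thionin gene THI2.2 went from 10.03 and 8.80 to 6.30 and 6.33 and fell by 3.10 ± 0.48 (adjusted p = 0.00331), and PDF1.2, a defensin gene of the jasmonate response, fell by 2.77 ± 0.75 (adjusted p = 0.0349). The other 13 defensin and thionin genes were not called. Over 102 genes of secondary metabolism the calls were 17 and 10, which became 7 and 4 without deficit array 1, 13 and 6 without deficit array 2, 8 and 4 without watered array 1 and 9 and 10 without watered array 2, and over 22 of defence 3 and 3, which became 1 and 1 without deficit array 1, 4 and 1 without deficit array 2, 2 and 1 without watered array 1 and 3 and 2 without watered array 2. The call was lost for EULS3 without deficit array 1 or watered array 1 (adjusted p 0.0808 to 0.0878), ChiC without deficit array 1 (adjusted p 0.0559) and PDF1.2 without deficit array 1, deficit array 2 or watered array 1 (adjusted p 0.13 to 0.214).

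Regulators as a whole were called near the background share, 9 raised and 19 lowered of 142. The lowered ones included genes of growth and leaf form. IAA29, an auxin-induced repressor, stood at 7.70 and 7.88 watered and 4.49 and 4.46 under deficit and fell by 3.32 ± 0.27 (adjusted p = 0.000301). TCP15, a regulator of leaf cell proliferation, stood at 8.69 and 9.23 watered and 5.80 and 6.56 under deficit, YAB3, of the lower leaf side, at 7.81 and 7.85 watered and 5.74 and 6.37 under deficit, and THE1, a receptor kinase that monitors the wall, at 8.24 and 7.96 watered and 5.15 and 4.81 under deficit. The groups were apart for each of them, and TCP15 fell by 2.78 ± 0.29 (adjusted p = 0.000654), YAB3 fell by 1.78 ± 0.23 (adjusted p = 0.00175) and THE1 fell by 3.12 ± 0.20 (adjusted p = 0.000218). The other 3 measured relatives of THE1, FER, ANX1 and ANX2, were not called. MYC4, a jasmonate-response factor, fell by 2.55 ± 0.24 (adjusted p = 0.000441) and bHLH115, a regulator of iron supply, fell by 1.80 ± 0.25 (adjusted p = 0.00221), while UPB1, a regulator of peroxidase genes in roots, went from 5.07 and 5.09 to 7.33 and 7.03 (adjusted p = 0.00272) and PYE, another factor of the iron response, rose by 1.70 ± 0.38 (adjusted p = 0.0154). BZIP61 went from 7.04 and 7.70 to 3.92 and 3.97 and fell by 3.42 ± 0.45 (adjusted p = 0.00175), and BZIP24, known from salt stress, rose by 1.73 ± 0.46 (adjusted p = 0.0307). WRKY6 rose by 2.096 ± 0.40 (adjusted p = 0.00856) and WRKY53 fell by 1.58 ± 0.46 (adjusted p = 0.0436), both being known from leaf senescence. The peptide genes RALFL24 and CLE41 fell by 3.005 ± 0.72 (adjusted p = 0.0216) and by 2.28 ± 0.48 (adjusted p = 0.013). Of 40 AGAMOUS-like genes 37 were not called, with a median signal of 3.91 that lies in the dimmest class. The calls over the 142 became 1 and 8 without deficit array 1, 5 and 9 without deficit array 2, 2 and 8 without watered array 1 and 2 and 15 without watered array 2. Leaving out single arrays ended the call of PYE without deficit array 1, watered array 1 or watered array 2 (adjusted p 0.0636 to 0.118), BZIP24 without deficit array 1, watered array 1 or watered array 2 (adjusted p 0.11 to 0.222), WRKY6 without deficit array 1 or watered array 1 (adjusted p 0.0544 to 0.0797), WRKY53 without deficit array 1, deficit array 2 or watered array 1 (adjusted p 0.0738 to 0.268), RALFL24 without deficit array 1, deficit array 2 or watered array 1 (adjusted p 0.0661 to 0.144) and CLE41 without deficit array 1 or watered array 1 (adjusted p 0.0916 to 0.105).

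Of 13 genes of ribosome biogenesis and RNA processing, some of them acting in organelles, 7 fell and none rose, with a median of -0.89 and changes no larger than 1.63 among those called. RH39, a helicase of plastid ribosomal RNA, went from 7.18 and 6.94 to 5.18 and 5.69 and fell by 1.63 ± 0.27 (adjusted p = 0.0046). TRZ4, a tRNA 3' end nuclease, fell by 1.30 ± 0.24 (adjusted p = 0.00737) and TRM82, of tRNA modification, fell by 1.28 ± 0.36 (adjusted p = 0.0389). The remodeller genes CHR23 and ATRX, of 14 measured, rose by 2.04 ± 0.53 (adjusted p = 0.0301) and by 1.49 ± 0.34 (adjusted p = 0.0173). HIS1-3, the linker histone variant known for its induction by drought, stood at 7.20 and 9.06 on the watered arrays and at a mean of 11.17 ± 0.23 (SD, n = 2) under deficit. It rose by 3.04 ± 0.65 (adjusted p = 0.0135), while none of the other 7 histone genes was called. Of 30 genes for RNA polymerases and splicing 2 fell and none rose. Over the 65 genes in the lists of this paragraph the 3 raised and 9 lowered calls depended on the processing. They became 5 and 2 when each array was centred on its median, and 5 and 5 with an intensity trend and robust prior. The median of the ribosome and RNA processing list was -0.779 with that centring. Over 65 nuclear genes the calls were 3 and 9, which became 0 and 1 without deficit array 1, 2 and 3 without deficit array 2, 0 and 1 without watered array 1 and 1 and 3 without watered array 2. Calls that did not hold with 1 array left out were those of TRZ4 without deficit array 1 or watered array 1 (adjusted p 0.0617 to 0.0708), TRM82 whichever array was left out (adjusted p 0.0608 to 0.23), CHR23 whichever array was left out (adjusted p 0.0754 to 0.189), ATRX without deficit array 1, watered array 1 or watered array 2 (adjusted p 0.0613 to 0.133) and HIS1-3 without deficit array 1, deficit array 2 or watered array 1 (adjusted p 0.0505 to 0.099).

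Transport and lipid lists were small. The organic cation transporter gene OCT1 stood at 4.25 and 5.97 on the watered and 7.65 and 8.11 on the deficit arrays, and OCT4 at 5.12 and 6.08 watered and 8.13 and 8.42 under deficit. Both were apart, although the watered OCT1 arrays differed by more than 1 unit, and OCT1 rose by 2.77 ± 0.47 (adjusted p = 0.00524) and OCT4 rose by 2.68 ± 0.39 (adjusted p = 0.00261). OCT5 fell by 1.32 ± 0.36 (adjusted p = 0.036). The glutamate receptor gene ATGLR1.2 went from 4.33 and 4.03 to 6.87 and 6.42 and rose by 2.47 ± 0.22 (adjusted p = 0.000389). VHA-A2, the proton pump subunit of the tonoplast, rose by 1.42 ± 0.36 (adjusted p = 0.0255). In phosphatidylcholine synthesis the methyltransferase gene PMEAMT fell by 1.96 ± 0.43 (adjusted p = 0.0145) and the choline-phosphate cytidyl transferase gene CCT2 rose by 1.56 ± 0.39 (adjusted p = 0.0258). Over the 21 transport genes the calls were 5 and 1, which became 3 and 0 without deficit array 1, 3 and 0 without deficit array 2, 3 and 0 without watered array 1 and 3 and 0 without watered array 2, and over 17 lipid genes 2 and 1, which became 0 and 0 without deficit array 1, 1 and 0 without deficit array 2, 1 and 0 without watered array 1 and 0 and 1 without watered array 2. Single arrays decided the call of OCT5 whichever array was left out (adjusted p 0.106 to 0.164), VHA-A2 whichever array was left out (adjusted p 0.066 to 0.172), PMEAMT without deficit array 1, deficit array 2 or watered array 1 (adjusted p 0.0677 to 0.11) and CCT2 without deficit array 1, deficit array 2 or watered array 2 (adjusted p 0.0551 to 0.183).

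The wild-type response was set against that of the other genotypes. The response of MYO-OX minus that of wild type gave 0 calls in limma (0% of probe sets), with 276 at an unadjusted p under 0.05. The response of atx1 minus that of wild type gave 40 calls (0.176%), with 180 at an adjusted p under 0.1 and 2320 at an unadjusted p under 0.05. With 2 arrays a group, a probe set that was not called is not shown to respond alike. Of the 40, 31 were called in wild type, 17 raised and 14 lowered there. In 27 of the 40 the atx1 change had the sign of the wild-type change and was smaller. The 2 comparisons share the wild-type arrays. AT2G42560, which has no name in the tables used here, rose in wild type from a mean of 4.01 ± 0.20 to one of 10.54 ± 0.48 (SD, n = 2 each) and changed by 0.23 in atx1, a difference of -6.29 (adjusted p = 0.00756). AT4G12580 rose by 4.42 in wild type and changed by 0.44 in atx1 (difference -3.99, adjusted p = 0.0359). CYP71B31, for a cytochrome P450, changed by 0.22 in wild type and by 4.19 in atx1 (difference 3.97, adjusted p = 0.00991). The atx1 deficit arrays also differed in the GAPDH controls, at 1.74 and 1.19 against at most 1.09 on any other array, and with that control as a covariate 5 probe sets were called. The part of that control in the difference was not tested further. Left-out wild-type arrays brought the 40 down to 0 (watered array 1), 2 (watered array 2), 1 (deficit array 1) and 19 (deficit array 2), and left-out atx1 arrays gave 0 (watered array 1), 0 (watered array 2), 14 (deficit array 1) and 107 (deficit array 2).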

How the data were processed

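The deposited values are log2 signals per probe set on ATH1 arrays, made by the authors with RMA, per the submitters' processing notes; its version: not given in the sources used here. After 64 control probe sets were left out, 22746 were fitted in limma 3.58.1 (R 4.3.3) with 1 mean for each of 6 groups over all 12 arrays (residual df 6, prior df 2.34), and p-values were adjusted by Benjamini-Hochberg over all probe sets. Precision is limited by how few arrays there are.

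The platform annotation listed 14016 probe sets, 13513 with 1 gene, 503 with several, and 8730 were not listed. TAIR10.1 loci matched 13436. A gene was read at its brightest probe set. Genes were listed by symbol patterns, since the tables hold no descriptions. Members and lists were chosen with earlier results of these data known. The text names, per list, up to 3 called genes in each direction by size whose arrays did not overlap, the largest changes per signal class, the 10 brightest genes and the largest differences between genotypes; genes named outside this rule were chosen after their values were seen. None of 20 marker loci of drought and reference genes had an annotated probe set. Alternatives covered pairing, scaling, filtering, the variance prior, the arrays fitted, control covariates and left-out arrays.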

Additional observations from a re-analysis of the deposited data

Results flagged for a closer look

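Of the 40 probe sets whose response differed between atx1 and wild type by the limma test of the difference itself, 6 had a gene symbol and 16 a locus number only. The 6 with a symbol are given here with AT2G42560 and AT4G12580, the loci with the largest differences among those 16. AT2G42560, SWEET4, ATGLR1.2 and AT4G12580 were raised in wild type and changed less in atx1, with differences (atx1 minus wild type, log2) of -6.29, -2.3, -2.22 and -3.99. IAA29 fell by 3.32 in wild type and by 0.35 in atx1, a difference of 2.97. Its watered mean was 7.79 in wild type and 5.10 in atx1, and its deficit means were 4.48 and 4.75. ZW9 changed by 1.21 in wild type and 4.36 in atx1, a difference of 3.15. Its watered mean was 10.56 in wild type and 4.65 in atx1, and its deficit means were 11.77 and 9.02. For both genes the genotypes thus differed already in watered rosettes, and the part of that in the differences was not tested. DELTA-VPE and CYP71B31 were not called in wild type and were higher under deficit in atx1, with differences of 3.07 and 3.97. The 3' minus 5' GAPDH controls were 1.74 and 1.19 on the atx1 deficit arrays, against 0.557 and 0.582 on those of wild type, and 5 probe sets were called over the whole array with that control as a covariate.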

How the results depend on the processing

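The wild-type count of 4466 was 2291 with 1 probe set per gene (1051 raised, 1240 lowered), where fewer probe sets were tested. The raised count was 3058 when the 4 wild-type arrays were fitted alone and 3131 with the hybridization control as a covariate; the cause was not tested. Leaving out 1 array gave 1441 to 2999 calls, 681 to 1434 raised and 760 to 1876 lowered, and among listed genes 47 to 82 raised and 58 to 121 lowered, with fewer samples. Of 226 genes eligible for naming 216 were called, and 93 of them whichever wild-type array was left out. Changes that were not called turned sign with 1 array left out, between 0.00825 and -0.353 for psbM, -0.00263 and 0.488 for SAMDC, 0.0595 and -1.37 for atpB, 0.0224 and -0.562 for petB and -0.0402 and 0.347 for DI19. The 40 differences of atx1 were 72 with quantile normalization, 99 with an intensity trend and robust prior, 23 with 1 probe set per gene, 5 with the GAPDH covariate and 0 to 107 with 1 array left out; the cause was not tested. For MYO-OX 0 to 1 were called with 1 array left out. With the replicate number as a block 5431 were called in wild type (2530 raised, 2901 lowered), 24 for atx1 and 0 for MYO-OX. Same-numbered arrays of wild type correlated at 0.0828 in their deviations, so the numbers are not shown to pair samples. Promoter motif shares were not run, as no promoter sequences were used here. Signal near background limits the dimmest class, where 0.33% were called.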
